A study of Mus musculus with 2 samples.

Results

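The collagen genes were followed by source cell in dissociated mouse spinal cord. All rows of the 2 deposited tables with a symbol of the form Col, digits, a, digits were taken, which gave 44 of the 22480 gene symbols, the same ones in both tables. The sham animals gave 1 library and animals 3 days after injury (3 dpi) gave the other. For each, 5 males and 5 females of the C57BL/6 strain, 8 weeks old, had been pooled. No genotype beyond the strain is named, and the sources used here give neither the kind of injury nor that of the sham surgery. A piece of 8 mm of cord around the injury site was digested, and 3′ droplet libraries counted unique molecular identifiers (UMIs), about 1 per captured RNA molecule.

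Collagens are secreted proteins whose chains wind around each other into a rope-like helix. Fibrillar collagens such as types I, III and V make the tensile fibres of connective tissue and scars, type IV makes the sheet-like network of basement membranes around vessels, and type VI makes beaded filaments near cell surfaces. In the healthy cord the fibrillar kinds are held mostly by the meninges and the outer wall of larger vessels, and after injury fibroblasts and pericyte-derived cells lay down a collagen-rich scar core.

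Cells that passed the filters and were not called doublets numbered 9306 in sham and 12108 at 3 dpi, with medians of 5245.5 and 8448.5 UMIs per cell. The whole libraries held 76889038 and 149291783 UMIs, and 39 barcode sequences occurred in both. Cells were clustered without the collagen genes, and clusters were named from fixed markers that include no collagen, so "fibroblast-like" and similar names come from rebuilt clusters and not from an annotation by the authors. Levels are in CPM, the usual counts-per-total unit: a gene's UMIs in the named cells divided by all UMIs of those cells, so that 10000 CPM are 1% of the UMIs. Each UMI is a molecule tagged near its 3′ end, so levels of genes of different length are on 1 scale, though capture of each 3′ end was not measured. Each group was 1 library, so no difference between them could be tested. Brackets give 95% intervals for counting error alone, without the spread between cells, mice or libraries, and library and injury cannot be told apart. Sums over a class also cannot tell more cells with the RNA from more RNA per cell.

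Collagen UMIs made up 444 CPM [439 to 449] of the sham library (29148 UMIs) and 2277 CPM [2268 to 2285] of the 3 dpi library (280668 UMIs), a 5.13-fold higher level at 3 dpi. In sham, 2 cells held 8918 of these UMIs, or 30.6%. Without these 2 cells the sham level was 308 CPM and the level at 3 dpi was 7.38-fold higher. Sham library levels named here that differ by over 1.5 times without these cells are given both ways.

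At 3 dpi, fibroblast-like cells were 5.60% of the cells (678 cells) and held 83.8% [83.6 to 83.9] of all collagen UMIs. Endothelial-like cells held 7.18%, the glial classes 5.94% and the myeloid classes, which were 65.7% of the cells, 2.69%. In sham, the 18 fibroblast-like cells held 32.4% of collagen UMIs, and 2.58% without the 2 cells. The other sham UMIs were spread: 24.4% lay in glial cells, 14.8% in endothelial-like cells, 14.1% in a cluster of 324 cells with both endothelial and pericyte markers (unnamed cluster 21), 8.03% in pericyte- or smooth muscle-like cells and 5.92% in myeloid cells. Without the 2 cells these shares were 35.2%, 21.3%, 20.3%, 11.6% and 8.53%. No class held most of the sham collagen, while fibroblast-like cells did at 3 dpi. Pericyte-like cells were 522 in sham and 13 at 3 dpi, so a 3 dpi share for them rests on 243 UMIs. Sham cells of cluster 21 had a median of 8075.5 UMIs, against 3243 in sham endothelial-like and 1855.5 in sham pericyte-like cells. Whether doublets remained in cluster 21 was not tested. Glial here means oligodendrocyte-like and precursor-like cells, unnamed cluster 28 with markers of both, and unnamed cluster 24 with ependymal and astrocyte markers. Myeloid means microglia-, monocyte/macrophage-, neutrophil- and border-associated macrophage-like cells and unnamed cluster 0.

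**Figure D1:**
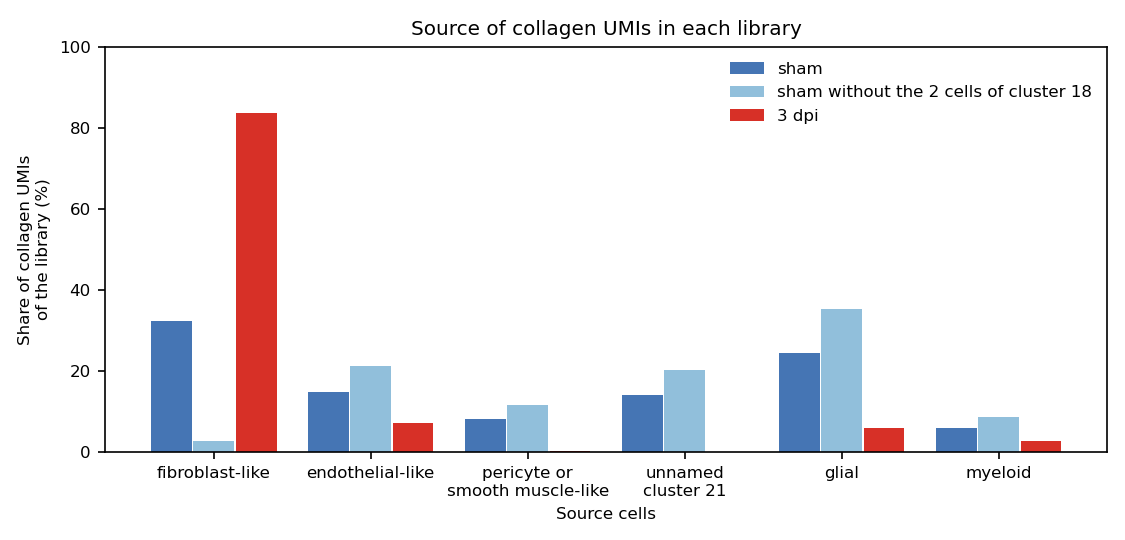
Share of all collagen UMIs of a library (y axis, %) by source cell (x axis), for the sham library, the sham library without 2 collagen-rich cells, and the 3 dpi library. Fibroblast-like cells hold 83.8% at 3 dpi, and in sham 32.4% with the 2 cells and 2.58% without them.

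Single members differed in where their UMIs lay. At 3 dpi fibroblast-like cells were the largest source of 25 of the 44 members, precursor-like cells of 9, oligodendrocyte-like cells of 4, endothelial-like cells of 3, microglia-like cells of 2 and unnamed cluster 20 of 1. This count takes in members with as few as 1 UMI, depends on class size and was not made over all genes. These classes held, in the same order, 10.2%, 9.03%, 12.9%, 6.02%, 29.9% and 2.04% of the UMIs of the kept 3 dpi cells. Among members with at least 20 CPM in a named class of 50 cells or more, 13 of 22 had their highest level in fibroblast-like cells, beside 10.9% of all 9522 genes measured in this way. The same count for endothelial-like cells was 4 (10.5% of all genes), for precursor-like cells 3 (26.9%), for oligodendrocyte-like cells 1 (20.3%) and for border-associated macrophage-like cells 1 (5.98%). It was 0 for microglia-like (3.1%), monocyte/macrophage-like (4.12%) and neutrophil-like cells (18.3%). In sham, where the fibroblast-like class had too few cells to enter, pericyte-like cells were highest for 12 of 18 members (19.2% of 10103 genes), precursor-like cells for 5 (33.3%) and microglia-like cells for 1 (14.3%). Endothelial-like cells (16.5%) and oligodendrocyte-like cells (16.8%) were highest for 0 of them in sham.

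**Figure D2:**
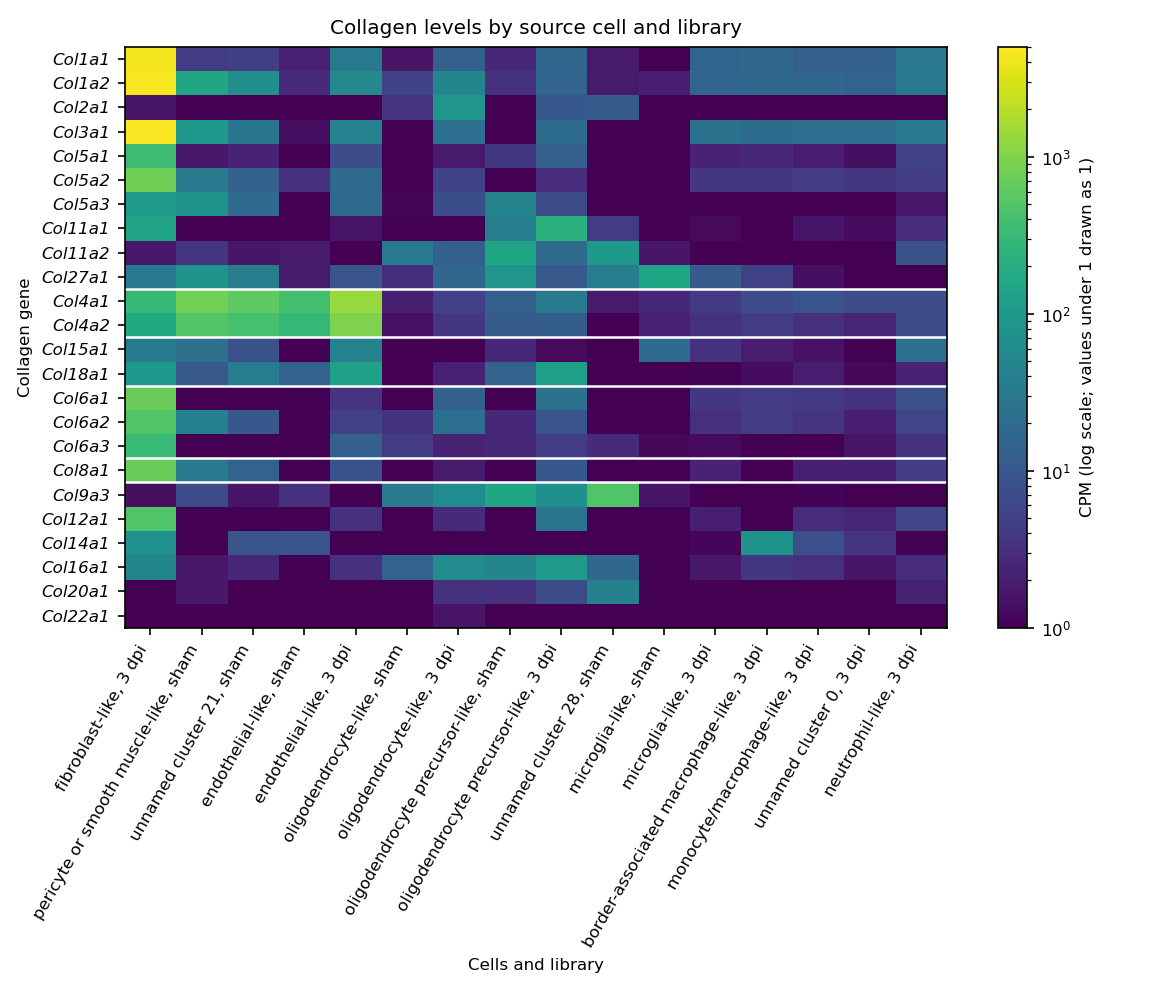
Level of 24 collagen genes (rows, in CPM on a log colour scale) in 16 sets of cells (columns), with white lines between collagen groups. The 18 sham fibroblast-like cells are not drawn. Among the columns drawn, Col1a1, Col1a2 and Col3a1 are brightest in fibroblast-like cells at 3 dpi, Col4a1 and Col4a2 in vessel cells, Col11a1 in precursor-like cells at 3 dpi and Col27a1 in sham microglia-like cells.

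The fibril-forming chains of types I and III led at 3 dpi. Col1a1, which encodes the α1 chain of type I collagen, had 69.3 CPM in the sham library (4551 UMIs) and 454 CPM at 3 dpi (55996 UMIs). Col1a2, its partner chain, had 77.6 and 496 CPM, and Col3a1, the chain of type III collagen, had 4.52 and 513 CPM. The 2 sham cells held 95.4% of sham Col1a1 and 84.1% of sham Col1a2 but no Col3a1. Without them the library level at 3 dpi was 143-fold higher for Col1a1 instead of 6.55-fold, 40.3-fold instead of 6.39-fold for Col1a2, and 113-fold in both cases for Col3a1. In fibroblast-like cells at 3 dpi the levels were 4323 CPM for Col1a1, 4660 CPM for Col1a2 and 4829 CPM for Col3a1, and this class held 96.7%, 95.5% and 95.8% of the library's UMIs of these genes. A fibroblast-like cell at 3 dpi held a median of 49 Col1a1, 55 Col1a2 and 56.5 Col3a1 UMIs. Over these 678 cells, depth-scaled log levels of Col1a1 went with those of Col1a2 (Pearson r = 0.889) and Col3a1 (r = 0.835). These correlations are descriptions over cells of 1 library that share clusters and depth.

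Leukocytes, which should largely lack type I and III collagen, set the background for these genes. At 3 dpi the level of Col1a1 was 0.302% to 0.690% of the fibroblast-like level across neutrophil-, monocyte/macrophage-, microglia- and border-associated macrophage-like cells and unnamed cluster 0. The ranges were 0.321% to 0.678% for Col1a2 and 0.422% to 0.703% for Col3a1. Levels of these genes in that range or below it are called background here. Whether they came from free RNA or from expression was not tested. Microglia-like cells helped set the range, so their Col3a1 (0.221 CPM in sham and 24.8 CPM at 3 dpi) lies in it by construction. The range takes in the Col1a1 of precursor-like cells and the Col1a1 and Col3a1 of oligodendrocyte-like cells. The Col3a1 of precursor-like cells lay just below it. Endothelial-like cells lay just above it, with Col1a1 at 0.717%, Col1a2 at 1.16% and Col3a1 at 0.890% of the fibroblast-like level. The share of these endothelial UMIs that came from free RNA was not tested.

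**Figure D3:**
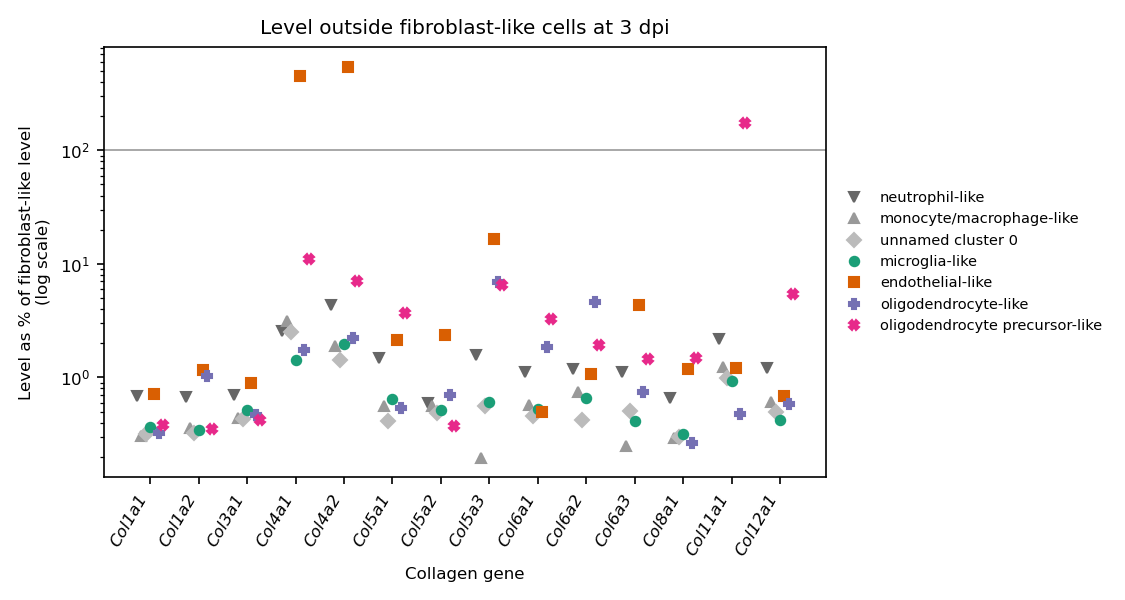
Level in other classes at 3 dpi as a percent of the level in fibroblast-like cells (y axis, log scale) for the 14 collagen genes (x axis) at 100 CPM or more in fibroblast-like cells. Leukocyte classes lie between 0.302% and 0.690% for Col1a1, while Col4a1, Col4a2 (endothelial-like) and Col11a1 (precursor-like) lie above the line at 100%.

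Col1a2 without matching Col1a1 marked some classes. In fibroblast-like cells at 3 dpi there were 0.928 [0.917 to 0.939] Col1a1 UMIs per Col1a2 UMI, and in microglia-like cells, at background level, 0.973 [0.866 to 1.09]. In sham pericyte-like cells the ratio was 0.0291 [0.00932 to 0.0692], from 5 Col1a1 and 172 Col1a2 UMIs, and in unnamed cluster 21 it was 0.0735 [0.0404 to 0.124]. In oligodendrocyte-like cells the ratio was 0.282 [0.211 to 0.371] in sham and 0.291 [0.25 to 0.339] at 3 dpi. Col1a2 itself was higher in oligodendrocyte-like cells at 3 dpi (5.60 CPM in sham, 47.6 CPM at 3 dpi), where it was 1.02% of the fibroblast-like level and above the leukocyte range. Subtracting 5% of free RNA lowered its log2 ratio from 1.88 to 1.52. At 3 dpi the ratio in oligodendrocyte-like cells was below that of fibroblast-like and microglia-like cells, with no overlap of the intervals. The same held for endothelial-like cells (0.572 [0.484 to 0.674]) and unnamed cluster 24 (0.475 [0.340 to 0.656]). The intervals of the leukocyte classes and of precursor-like cells overlapped that of fibroblast-like cells. The sham ratio in microglia-like cells rests on 8 and 19 UMIs.

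The other fibrillar chains with high levels in fibroblast-like cells were those of type V, which sits inside type I fibrils and sets their width. Col5a1 had 0.777 CPM in the sham library (0.488 CPM without the 2 cells) and 39.2 CPM at 3 dpi, and 91.2% of its 3 dpi UMIs lay in fibroblast-like cells (352 CPM). Col5a2 had 3.58 CPM in sham (2.36 CPM without the 2 cells) and 85.6 CPM at 3 dpi, with 34.8 CPM in sham pericyte-like cells and 791 CPM in fibroblast-like cells at 3 dpi. Col5a3 had 4.42 and 15.2 CPM. Its levels were 77.6 CPM in sham pericyte-like cells, 44.4 CPM in sham precursor-like cells and 112 CPM in fibroblast-like cells at 3 dpi.

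Type VI chains were also mainly fibroblast-like at 3 dpi. Col6a1 had 26 UMIs in the whole sham library, 23 of them in fibroblast-like cells, and 729 CPM in fibroblast-like cells at 3 dpi, where 91.4% of its UMIs lay. Col6a2 reached 491 CPM and Col6a3 312 CPM in that class. In sham most UMIs of these 2 genes lay in oligodendrocyte-like cells, which held 64.8% of all sham UMIs. That class held 58.7% of Col6a2 and 86.1% of Col6a3, at 3.48 and 4.52 CPM. Sham fibroblast-like cells without the 2 collagen-rich cells had higher levels, 402 CPM for Col6a2 (16 UMIs) and 101 CPM for Col6a3 (4 UMIs). Sham pericyte-like cells had Col6a2 at 42.8 CPM with 0 Col6a1 UMIs. Col8a1, a short-chain collagen of vessel walls, was at 33.0 CPM in sham pericyte-like cells and 716 CPM in fibroblast-like cells at 3 dpi (95.4% of its UMIs). Col12a1, which binds the surface of fibrils and bridges them, had 16 UMIs in the sham library and 487 CPM in fibroblast-like cells at 3 dpi (90.3%).

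The fibroblast-like class at 3 dpi was made of 2 clusters that carried different collagens. Cluster 18 (444 cells at 3 dpi) had UMIs of all 11 fibroblast markers, with Dcn at 1582 CPM and Igfbp6 at 1222 CPM but Slc6a13 at 0.772 CPM and Aldh1a2 at 2.98 CPM. It had UMIs of 9 of the 11 pericyte markers, with Acta2 (255 CPM) and Tagln (566 CPM), which encode contractile proteins, and Pdgfrb (37.5 CPM) highest, and Rgs5 at 2.32 CPM and Vtn at 3.86 CPM. Cluster 23 (234 cells) had Dcn at 5832 CPM, Slc6a13, a transporter of meningeal fibroblasts, at 155 CPM, and also the pericyte markers Vtn at 622 CPM and Rgs5 at 214 CPM. Acta2 (825 CPM), Tagln (1110 CPM) and Pdgfrb (187 CPM) were also higher in cluster 23 than in cluster 18. The 11 fixed pericyte markers summed to 867 CPM in cluster 18 and 3138 CPM in cluster 23, and their part in the collagen differences between these clusters was not tested. Collagens in all made up 21831 CPM of cluster 18 and 10743 CPM of cluster 23. Median depth was 17642 UMIs in cluster 18 and 12010.5 UMIs in cluster 23.

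Cluster 18 was higher in fibrillar, type VI, type VIII and fibril-bridging chains. Col1a1 was 5136 CPM in cluster 18 and 2191 CPM in cluster 23, a 2.34-fold difference [2.29 to 2.40], and Col3a1 differed 2.29-fold. Larger differences were seen for Col12a1 (649 and 61.0 CPM, 10.6-fold), Col8a1 (937 and 134 CPM, 7.01-fold) and Col11a1 (174 and 25.2 CPM, 6.92-fold). Col6a1 was 4.37-fold and Col6a2 4.33-fold higher in cluster 18, and the third chain of type VI, Col6a3, 1.68-fold. Cluster 23 was higher in basement membrane collagens. Col15a1, a proteoglycan-like collagen at the outer side of basement membranes, was 4.52 CPM in cluster 18 and 110 CPM in cluster 23 (24.3-fold [17.5 to 34.4]). Col18a1, the precursor of endostatin, was 15.5 and 295 CPM (19.0-fold). Col7a1, of the anchoring fibrils, was 9.15 and 68.6 CPM (7.49-fold), Col4a1 143 and 698 CPM (4.89-fold), and Col4a2 95.03 and 386 CPM (4.06-fold). Col5a3 was at 106 and 126 CPM, the ratio nearest to 1 among members at 20 CPM or more in either cluster. These clusters were built without collagen genes, but from other genes of the same cells, so the differences describe the clusters and are no test between cell types. Over the 678 cells the depth-scaled log level of Col1a1 ran against those of Col4a1 (r = -0.25) and Col18a1 (r = -0.28).

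**Figure D4:**
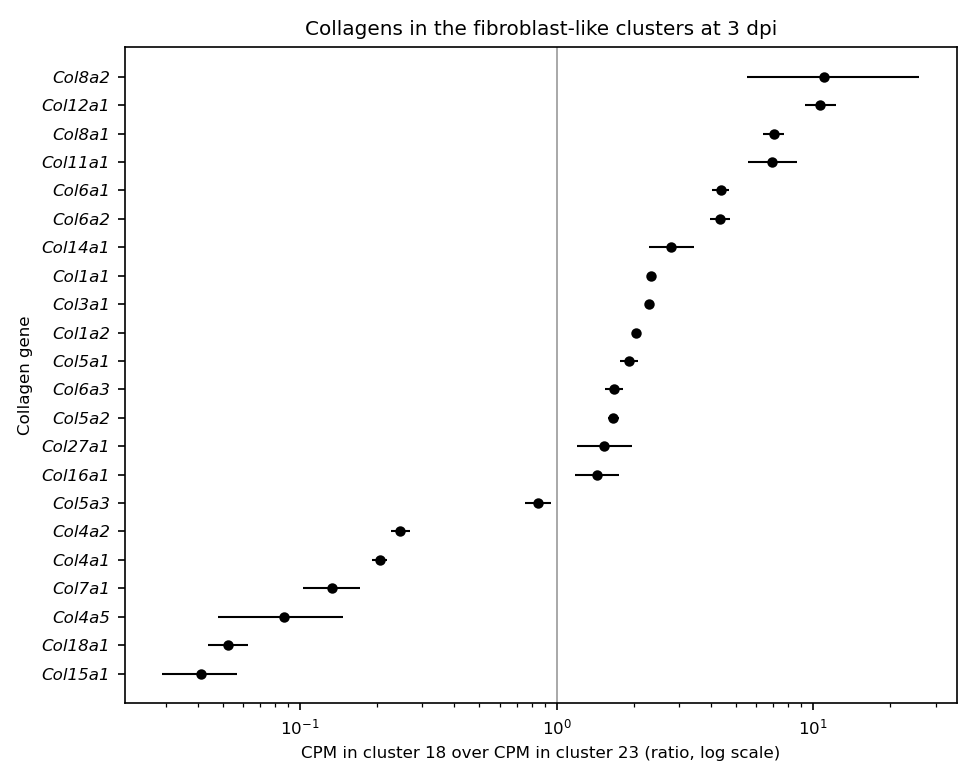
Ratio of the level in cluster 18 to that in cluster 23 at 3 dpi (x axis, log scale) for the collagen genes (y axis) at 20 CPM or more in either cluster, with 95% counting intervals. Col12a1 lies at 10.6 and Col15a1 and Col18a1 at the far left, 24.3-fold and 19.0-fold lower in cluster 18.

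In sham the same clusters held 2 and 16 cells. The 2 sham cells of cluster 18 had 28044 and 15440 UMIs, of which 20.4% and 20.8% were collagen. They held 2835 and 1508 Col1a1 UMIs and 2721 and 1565 Col1a2 UMIs, but 0 UMIs of Col3a1, Col4a1 and Col6a1 each, while cluster 18 at 3 dpi had Col3a1 at 5718 CPM and Col1a1 at 5136 CPM. Both also held Col5a2 (46 and 34 UMIs), Col11a1 (40 and 34), Col11a2 (36 and 41), Col5a1 (12 and 7), Col22a1 (12 and 11) and Col13a1 (5 and 2), and 1 or the other held 1 to 4 UMIs of Col2a1, Col15a1, Col16a1, Col24a1 or Col27a1. Of the 11 fixed fibroblast markers, 7 were at 0 in these cells, among them Slc6a13, and Dcn had 192 and 63 UMIs. They also held UMIs of bone genes, looked up after the collagen values had been seen: Bglap, which encodes osteocalcin, at 2387 and 11, Ibsp at 9 and 18, and Sp7, a transcription factor of osteoblasts, at 2 and 1. The label "fibroblast-like" was given to cluster 18 as a whole, in which nearly all cells came from the 3 dpi library. These 2 cells themselves had UMIs of 4 of the 11 markers: Dcn (255), Lum (93), Islr (1) and Ogn (1). Both held Y-linked and no Xist UMIs. Where these 2 cells came from was not tested.

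The 16 sham cells of cluster 23 held 8 to 70 collagen UMIs each (median 32.5) and 521 in all, at 13094 CPM against 10743 CPM at 3 dpi. For Col1a1 (2212 CPM in sham and 2191 CPM at 3 dpi), Col4a1 (779 and 698 CPM) and Col18a1 (377 and 295 CPM) the counting interval of the ratio took in 1. These intervals are wide, and at 88 sham Col1a1 UMIs that of Col1a1 was 0.803 to 1.24. Col3a1 was 1709 and 2497 CPM, a 1.46-fold [1.15 to 1.88] higher level at 3 dpi. Col15a1 was lower at 3 dpi, at 1508 and 110 CPM (13.8-fold [10.3 to 18.1]), as were Col4a5 (327 and 21.7 CPM, from 13 UMIs in sham) and Col4a6 (276 and 6.94 CPM, from 11 UMIs in sham). Col6a1 was also lower, at 578 and 212 CPM. Col8a1 had 0 UMIs in these 16 cells and was at least 1.77-fold higher at 3 dpi, with the sham value set at the limit of 3 counts. Markers differed too within this cluster: Slc6a13 was 2086 CPM in sham and 155 CPM at 3 dpi, Dcn 22620 and 5832 CPM, Acta2 25.1 and 825 CPM, and Rgs5 0 UMIs and 214 CPM. The 11 fibroblast markers summed to 29607 and 8401 CPM and the 11 pericyte markers to 2312 and 3138 CPM, and their part in the collagen differences was not tested. The sham cells had a median of 2082.5 UMIs, and whether they were the same kind of cell as those at 3 dpi was not tested.

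Type IV collagen was the main collagen of vessel cells in both libraries. Col4a1 and Col4a2 encode the α1 and α2 chains that join in nearly all basement membranes, and they lie head to head in the mouse genome. Their RefSeq promoter windows, 250 bases before to 50 bases after each start on build GRCm38.p6, are chr8:11312777-11313076 on the minus strand for Col4a1 and chr8:11312555-11312854 on the plus strand for Col4a2. The windows overlap by 78 bases, shown in capitals as each gene reads them, and are printed because these neighbouring genes start within the same stretch and were the main collagens of the same vessel cells.
Col4a1: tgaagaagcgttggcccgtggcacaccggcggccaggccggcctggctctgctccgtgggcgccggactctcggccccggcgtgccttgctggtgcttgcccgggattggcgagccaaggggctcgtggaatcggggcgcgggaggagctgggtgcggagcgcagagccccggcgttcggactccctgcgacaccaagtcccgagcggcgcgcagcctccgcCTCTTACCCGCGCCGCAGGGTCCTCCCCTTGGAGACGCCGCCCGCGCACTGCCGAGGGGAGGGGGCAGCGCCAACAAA
Col4a2: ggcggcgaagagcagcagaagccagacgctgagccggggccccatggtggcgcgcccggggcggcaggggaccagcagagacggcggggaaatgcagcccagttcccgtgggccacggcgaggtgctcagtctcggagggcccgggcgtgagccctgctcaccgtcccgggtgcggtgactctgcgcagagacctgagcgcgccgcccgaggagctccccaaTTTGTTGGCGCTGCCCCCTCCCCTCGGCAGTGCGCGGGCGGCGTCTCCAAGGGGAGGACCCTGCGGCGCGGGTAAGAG

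The motif CCAAT, searched on both strands, occurred 1 time in each window, 145 bases before the Col4a1 start and 32 bases before the Col4a2 start. It occurred in 37.4% of all 32851 promoter windows of this table and in 12 of the 35 collagen genes with a window, so its presence in this pair is a description and no site.

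Col4a1 had 79.7 CPM in the sham library and 120 CPM at 3 dpi, and Col4a2 had 55.9 and 80.1 CPM. Their library levels were 1.51-fold and 1.43-fold higher at 3 dpi, while the mix of sources differed. In sham, endothelial-like cells held 43.2% of Col4a1, unnamed cluster 21 35.1% and pericyte-like cells 17.8%. At 3 dpi endothelial-like cells held 67.5% and fibroblast-like cells 25.0%. Of the 3709 fibroblast-like Col4a1 UMIs, 2414 lay in cluster 23, which also carried pericyte markers. With coarser clusters the 3 dpi library had 650 fibroblast-like and 41 pericyte-like cells, in place of 678 and 13. How far the difference in sources depends on this border between classes was not tested. By level, sham pericyte-like cells stood highest, at 828 CPM for Col4a1 and 496 CPM for Col4a2, followed by cluster 21 (608 and 418 CPM) and endothelial-like cells (381 and 288 CPM), with no overlap of the counting intervals of Col4a1. There were 1.32 [1.24 to 1.41] Col4a1 UMIs per Col4a2 UMI in sham endothelial-like cells and 1.41 [1.36 to 1.45] at 3 dpi, against 1.67 [1.503 to 1.86] in sham pericyte-like and 1.69 [1.601 to 1.78] in 3 dpi fibroblast-like cells.

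In endothelial-like cells, 7 members were measured (at least 20 CPM in 1 library) and all 7 were called higher at 3 dpi, by a size rule of 2-fold with 10 CPM added to both libraries. None was called lower. Of all 7086 genes measured in this class, 8.37% were called higher and 14.3% lower, and the median log2 ratio was 2.22 for the 7 members and -0.27 for all genes. Col4a1 was 1349 CPM [1322 to 1375] at 3 dpi against 381 CPM [366 to 397] in sham, a log2 ratio of 1.80. Col4a2 was 288 and 959 CPM, with a log2 ratio of 1.70. A median endothelial-like cell held 1 Col4a1 UMI in sham and 15 at 3 dpi, at median depths of 3243 and 13925 UMIs. Thinned to 1000 UMIs per cell, Col4a1 was seen in 32.1% of sham and 67.4% of 3 dpi cells, beside 68.9% and 93.3% before thinning. Among neutrophil-like cells, which should lack the gene and had a median of 1030.5 UMIs, it was seen in 0.889% at 3 dpi.

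The multiplexins Col18a1 and Col15a1, collagens of basement membrane zones, were also higher in endothelial-like cells. Col18a1 was 130 CPM [122 to 138] at 3 dpi against 15.2 CPM [12.2 to 18.7] in sham, 8.56-fold [6.89 to 10.7] higher, and was seen in 4.01% of sham and 43.2% of 3 dpi cells (1.39% and 8.08% after thinning). Col15a1 had 2 UMIs in sham (0.337 CPM) and 340 at 3 dpi (45.8 CPM), a ratio of 136 [37.3 to 1126]. It was uneven between cells: 58 of the 405 cells at 3 dpi had any, and the 41 cells with the most held 95% of its UMIs. The remaining 3 called members, Col1a1, Col1a2 and Col3a1, lay at 2.19, 2.87 and 1.35 CPM in sham, against 31.0, 54.2 and 43.0 CPM at 3 dpi, the level just above background. Nearly all sham cells of this class lay in cluster 3 (1398 cells) and nearly all 3 dpi cells in cluster 19 (374 cells). Within cluster 3 the 31 cells at 3 dpi had Col4a1 at 627 CPM [513 to 760] and Col4a2 at 446 CPM, against 389 and 295 CPM in sham, and Col15a1 at 0 UMIs. So within the cluster that both libraries filled the Col4a1 difference was smaller than between the classes.

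**Figure D5:**
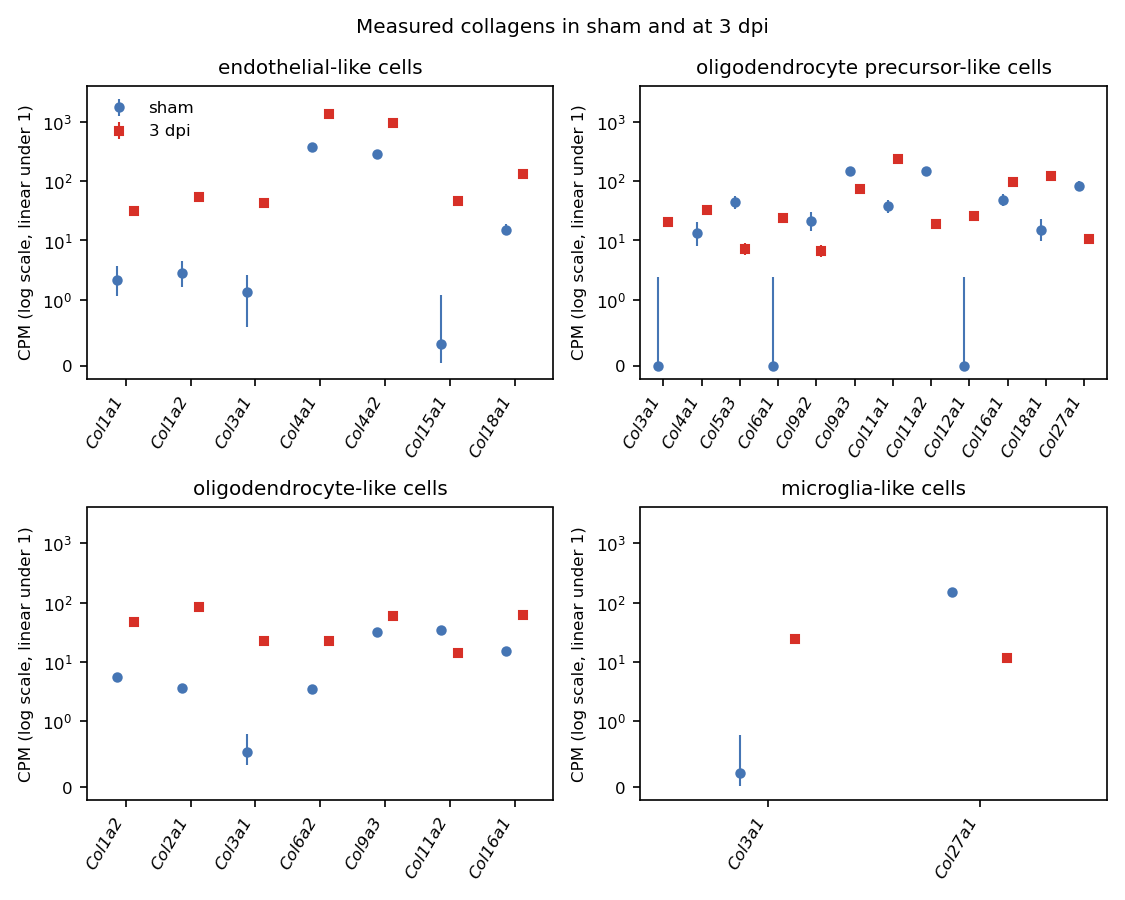
Levels in CPM (y axis, log scale above 1) of the collagen genes measured in each class (x axes), in sham (circles) and at 3 dpi (squares), with 95% Poisson intervals of the counts. All 7 endothelial-like members lie higher at 3 dpi, while Col5a3, Col11a2 and Col27a1 lie lower in precursor-like cells and Col27a1 in microglia-like cells.

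The minor type IV chains were rare and lay mainly in pericyte-like cells and cluster 21 in sham, which each held 35.0% to 41.2% of their UMIs. Col4a3, Col4a4, Col4a5 and Col4a6 were at 33.0, 54.4, 44.6 and 18.7 CPM in pericyte-like cells, and at 12.9, 18.9, 17.9 and 7.94 CPM in cluster 21. The 18 sham fibroblast-like cells had 0 UMIs of Col4a3 and Col4a4, but higher levels of Col4a5 (156 CPM, 13 UMIs) and Col4a6 (132 CPM, 11 UMIs) than the pericyte-like cells. Col4a3 with Col4a4 and Col4a5 with Col4a6 are also neighbouring genes in head-to-head order by RefSeq GRCm38.p6. Whole-library levels of Col4a3 were lower at 3 dpi (1.57 CPM in sham, 0.105 CPM at 3 dpi), as were those of Col4a4 (2.32 and 0.414 CPM), where the library held 13 pericyte-like cells. Col4a5 was at 1.996 and 2.30 CPM and Col4a6 at 0.914 and 0.965 CPM, with another main source at 3 dpi, since precursor-like cells held 47.9% and 56.3% of them. These 4 genes fell below the level set for single description and were named after their values had been seen.

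Pericyte-like cells in sham, which wrap small vessels, held a mixed set of collagens at 2086 CPM in all. Col4a1 made up 39.7% of it and Col4a2 23.8%. Col1a2 was 153 CPM [131 to 178], Col3a1 93.6 CPM, Col5a3 and Col27a1 77.6 CPM each, Col6a2 42.8 CPM and Col15a1 23.2 CPM. Col1a2 was seen in 26.1% of the 522 cells (14.3% of 484 cells after thinning), beside 1.07% in endothelial-like cluster 3. The 13 pericyte-like cells at 3 dpi had Col4a1 at 2318 CPM (100 UMIs), Col4a2 at 1576 CPM (68 UMIs), Col18a1 at 371 CPM (16 UMIs) and Col1a1 at 0 UMIs. These 13 cells are too few for a comparison of the classes.

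Oligodendrocyte precursor-like cells, which carried chains also known from cartilage, differed in both directions. Of 12 measured members 5 were called higher (7.28% of all 8132 genes) and 3 lower (13.9%), and with median-of-ratios scaling, which shifted log2 ratios by 0.33 relative to CPM, 9 and 3. The count called lower was 6 with coarser clusters, with collagen genes kept for clustering and with a stricter cell filter. Col11a1, a fibrillar chain of cartilage, was 233 CPM [224 to 242] at 3 dpi against 37.8 CPM [28.6 to 49.0] in sham, 6.17-fold [4.75 to 8.17] higher. This level was above that of fibroblast-like cells at 3 dpi (133 CPM), and precursor-like cells held 58.4% of the library's Col11a1 UMIs. It was seen in 17.5% of sham and 76.4% of 3 dpi cells (2.51% and 20.6% after thinning, at medians of 5189 and 11472.5 UMIs), beside 0.342% of neutrophil-like cells. Col18a1 was 15.3 CPM in sham and 121 CPM at 3 dpi, 7.96-fold higher, and precursor-like cells held 36.8% of it at 3 dpi, more than any other class.

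The other type XI chain went the opposite way. Col11a2 was 149 CPM in sham and 18.9 CPM at 3 dpi, a 7.87-fold [6.49 to 9.55] lower level. There were 0.254 [0.187 to 0.342] Col11a1 UMIs per Col11a2 UMI in sham and 12.4 [10.7 to 14.3] at 3 dpi. Col27a1, another fibrillar chain, was 84.2 and 10.7 CPM (7.87-fold lower), and Col5a3 44.4 and 7.28 CPM (6.10-fold lower). The 3 further members called higher had 0 UMIs in sham: Col6a1 (23.7 CPM at 3 dpi, at least 11.9-fold), Col12a1 (26.2 CPM, at least 13.2-fold) and Col3a1 (20.3 CPM, at least 10.2-fold). These bounds set sham at 3 counts over the class. Col6a1 and Col12a1 lay at 3.26% and 5.39% of the fibroblast-like level, above the leukocyte ranges of 0.457% to 1.12% and 0.135% to 1.201%, while Col3a1 at 0.421% was at background. Col9a3, of the fibril-associated type IX, was 148 and 72.5 CPM, Col16a1 48.4 and 96.6 CPM, Col4a1 13.3 and 32.4 CPM and Col9a2 21.2 and 6.65 CPM, and these 4 passed the size rule in neither direction. Sham cells of this class lay in cluster 22 (276 of 285) and 3 dpi cells in cluster 9 (857 of 864), so no cluster was filled by both libraries.

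Oligodendrocyte-like cells held low collagen levels, 121 CPM in sham and 407 CPM at 3 dpi over all members. Of 7 measured members 5 were called higher (4.68% of all 6239 genes) and 0 lower (3.69%). Col2a1, the main fibrillar chain of cartilage, was 85.3 CPM [80.9 to 89.99] at 3 dpi against 3.62 CPM [3.07 to 4.24] in sham, 23.6-fold [19.9 to 28.02] higher. Oligodendrocyte-like cells held 88.5% of the library's Col2a1 in sham and 85.9% at 3 dpi, and the precursor-like cells had 10.4 CPM at 3 dpi. Col2a1 was seen in 3.29% of sham and 23.5% of 3 dpi cells (0.212% and 5.57% after thinning, at medians of 7488 and 9128 UMIs), beside 1.48% of endothelial-like cells at 3 dpi. The 143 cells with the most held 78.7% of its 3 dpi UMIs. At 85.3 CPM it was under the level for single description and was named after its value had been seen. Col16a1, a fibril-associated collagen, was 15.2 and 61.3 CPM (4.04-fold higher), and Col6a2 3.48 and 22.7 CPM (6.53-fold higher). Col3a1 was 0.541 and 22.4 CPM, at background. Col9a3 (32.1 and 59.9 CPM) and Col11a2 (33.9 and 14.2 CPM) passed the rule in neither direction. Sham cells of this class lay in clusters 4, 6, 10, 14, 17 and 29, and 3 dpi cells in clusters 12 and 13.

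A small cluster between precursors and oligodendrocytes stood out for type IX and type XX. Unnamed cluster 28, led by Gpr17, a receptor of differentiating oligodendrocytes, had 84 sham and 23 3 dpi cells. Col9a3 was 501 CPM [460 to 545] there in sham and 487 CPM [398 to 589] at 3 dpi, against 148 CPM in sham precursor-like and 32.1 CPM in sham oligodendrocyte-like cells. Col20a1, a fibril-associated chain, was 42.3 CPM (46 UMIs) in sham and 227 CPM (49 UMIs) at 3 dpi, and this cluster held 56.1% of the sham library's Col20a1. Col11a2 was 92.9 and 88.1 CPM. The 3 dpi values rest on 23 cells.

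In microglia-like cells, the resident phagocytes, Col27a1 was the main collagen in sham. It was 11.7 CPM [10.6 to 12.8] at 3 dpi against 149 CPM [141 to 157] in sham, 12.7-fold [11.4 to 14.2] lower. Of 2 measured members in this class 1 was called lower (16.4% of all 6201 genes) and 1, Col3a1 at background, higher (11.8%). Microglia-like cells helped set that background range. Sham microglia-like cells held 71.1% of the sham library's Col27a1, and Col27a1 made up 78.1% of their collagen UMIs. It was seen in 40.9% of sham and 14.1% of 3 dpi cells (13.4% and 1.24% after thinning, at medians of 3818 and 13660 UMIs), beside 0.703% of sham endothelial-like cells at a median of 3243 UMIs. Sham clusters 5 and 8 had 156 and 142 CPM, and 3 dpi clusters 1 and 11 had 12.5 and 10.5 CPM, so the libraries did not overlap by cluster. In cluster 25, which both libraries filled, the values were 24.7 CPM (2 UMIs) and 2.66 CPM (1 UMI). Col27a1 was therefore lower at 3 dpi in both classes with a high sham level and enough 3 dpi cells, microglia-like and precursor-like cells. Its highest 3 dpi level among named classes of at least 50 cells was in fibroblast-like cells, at 33.7 CPM.

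Border-associated macrophage-like cells, the macrophages of meninges and perivascular spaces, had Col14a1, a fibril-associated chain, at 80.2 CPM [66.6 to 95.8] at 3 dpi, beside 75.0 CPM [70.3 to 80.0] in fibroblast-like cells, with overlapping intervals. It was seen in 64 of 122 cells, 52.5% (12.3% after thinning, at a median of 12248.5 UMIs), against 0 UMIs in 1462 neutrophil-like cells, 3.44% of monocyte/macrophage-like cells and 3.26% of the cells of unnamed cluster 0. In sham 1 of 49 such cells had a UMI. The size of this class depended on the clustering. It held 134 sham and 11 3 dpi cells with coarser clusters, 49 and 411 with finer ones, and 49 and 301 with doublets kept. The Col14a1 level was not followed under these alternatives. Col15a1 was 24.0 CPM [17.2 to 32.5] in neutrophil-like cells at 3 dpi, from 41 UMIs in 37 cells, and 19.6 CPM [16.8 to 22.7] in sham microglia-like cells, which held 52.8% of the sham library's Col15a1. In microglia-like cells at 3 dpi it was 3.53 CPM. Col14a1 was named after its value had been seen.

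The machinery that folds, exports and joins collagen was followed with 5 fixed lists of 65 genes, of which 1 was absent from the tables. At 3 dpi 38 of the 48 list genes that were measured had their highest level in fibroblast-like cells, against 10.9% of all genes. By list these were 16 of 19 for folding and modification, 6 of 9 for export, 7 of 8 for propeptide cleavage and cross-linking, 3 of 6 for receptors and 6 of 6 for small proteoglycans. Among the small proteoglycans, Dcn, Lum and Ogn are also fixed markers that named the fibroblast-like class. Their place in it was therefore favoured by the naming, and they are part of the 38. Serpinh1, the collagen chaperone HSP47, was at 1558 CPM in fibroblast-like cells, Plod2, a lysyl hydroxylase, at 476 CPM, Lox, the cross-linking oxidase, at 668 CPM and Pcolce, an enhancer of propeptide cleavage, at 413 CPM, against 11.1, 3.52, 3.52 and 4.10 CPM in neutrophil-like cells. In endothelial-like cells 4 of 14 measured folding genes were called higher (8.37% of all genes) and 1 lower (14.3%). Those called higher included Serpinh1 (191 CPM in sham, 714 CPM at 3 dpi) and P4hb, a subunit of prolyl hydroxylase (123 and 370 CPM). In precursor-like cells 0 of 11 folding genes were called higher (7.28% of all genes) and 1 lower (13.9%), counts near those shares, and Serpinh1 was 10.6 CPM in sham and 23.4 CPM at 3 dpi. In oligodendrocyte-like cells 2 of 9 folding genes were called higher (4.68% of all genes) and 0 lower (3.69%). Of 3 measured collagen receptors in endothelial-like cells, 2 were called lower (14.3% of all genes), among them Itga1 (406 and 171 CPM), and 0 higher (8.37%). In precursor-like cells 2 of 3 receptors were called higher (7.28%) and 0 lower (13.9%). Both measured cross-linking genes (2 of 2) and both small proteoglycans (2 of 2) were called higher in endothelial-like cells (8.37%). Ddr1 was highest in oligodendrocyte-like cells at 3 dpi (321 CPM).

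The remaining members were low. In all, 22 of the 44 reached 100 CPM and 20 UMIs in a class of at least 10 cells, and Col22a1 did so through 30 UMIs in the 18 sham fibroblast-like cells, 23 of them in the 2 cells of cluster 18. Among the 22 that did not, 7 had fewer than 20 UMIs in both libraries, and Col6a4 and Col10a1 had 0 UMIs in sham and 1 at 3 dpi. Col8a2 was at 83.6 CPM (32 UMIs) in sham cluster 24, which has ependymal and astrocyte markers, and at 19.2 CPM in fibroblast-like cells at 3 dpi. Col9a1 was 3.92 CPM in the sham and 0.714 CPM in the 3 dpi library, mainly from oligodendrocyte-like cells in sham (74.7%) and precursor-like cells at 3 dpi (76.1%).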

How the data were processed

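The deposited tables held raw UMI counts per gene symbol and barcode, 1 table per library. Cell Ranger and Seurat are named in the submitters' processing notes, with no role or version, as is GRCh38, a human build, although the symbols are mouse symbols. The sources used here do not give the authors' filters. The tables held 0 mitochondrial rows.

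Cells needed 200 genes and 500 UMIs (10126 of 10138 sham and 13584 of 13594 3 dpi barcodes). Doublets were scored against 2 simulated doublets per cell, and the expected number (0.8% per 1000 cells) was removed, 820 and 1476 cells, with 59.8% and 75.8% of simulated doublets above the thresholds. Log-scaled counts of 2000 variable genes without collagens gave 30 principal components, a graph of 15 neighbours and 33 Leiden clusters at resolution 1.0, with no batch integration. A cluster took the class with at least 3 markers 2-fold higher, unless a second class lay within 1 log2 unit. This rule and the families given to unnamed clusters were set after seeing the data.

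Counts were summed per class and library. Members, marker lists and pathway lists were chosen with earlier results of these data known. A member was described singly at 100 CPM and 20 UMIs in a class of at least 10 cells. The rule for naming list genes was a call or 100 CPM in fibroblast-like cells, and only some of the genes that met it are named. Calls needed 20 CPM, 2-fold with 10 CPM added, and classes of 50 cells in both libraries. The ratio rule was tested on simulated data. Intervals are exact (Poisson, Clopper-Pearson, conditional), and counts of 0 were bounded at 3. Alternatives were other clusterings, filters, scalings, pseudocounts, sexes and a free-RNA subtraction. In GENCODE M21, Col4a1, Col9a3 and Col18a1 overlap a gene on the other strand at their 3′ ends, and the sources used here do not say whether counting used strand. Clustering used leidenalg 0.10.2 and igraph 0.11.9, and the other steps scikit-learn 1.9.0, scipy 1.17.1, numpy 2.4.6, pandas 2.3.3 and matplotlib 3.10.9 under Python 3.11.15.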

Additional observations from a re-analysis of the deposited data

How the results depend on the processing

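No paired analysis was possible because each group was 1 library and the labels carry no replicate numbers. No value changed direction. Across the alternatives 61 main values and 115 single-gene log2 ratios stayed within their counting interval (counts of genes within 1.5 times), and 20 and 15 did not. The share of 3 dpi collagen UMIs in fibroblast-like cells (83.8%) was 86.9% with 5% free RNA subtracted, 83.0% with coarser clusters, 83.5% with doublets kept, 76.1% in female-derived and 87.1% in male-derived cells, and 85.0% over named classes only. The sham share in endothelial-like plus pericyte-like cells (22.8%) was 32.8% without the 2 collagen-rich sham cells (an alternative chosen after seeing the data), 24.3% with doublets kept, 34.3% in female-derived and 11.99% in male-derived cells, and 27.8% over named classes only. The log2 ratio of library collagen levels (2.36) was 2.88 without these cells, 2.18 in female-derived and 2.16 in male-derived cells. In precursor-like cells the count called higher (5) was 9 with median-of-ratios scaling and 8 without a filter on low values, and the count called lower (3) was 5 with 1 CPM added and 6 each with coarser clusters, with collagen genes kept for clustering and with a stricter cell filter. The cause was not tested. Depth limits the sham fibroblast-like values, which rest on 18 cells, and the 3 dpi pericyte-like values, which rest on 13.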
